A study of Rattus norvegicus with 9 samples.

Results

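The genes described here encode nuclear-encoded subunits of respiratory complexes II, III, IV and V, though not all of them, with a few closely named companions, in pancreatic islets of male Wistar rats. They were taken by symbol from the array annotation: Sdha to Sdhd, Cyc1, Cycs, and every symbol that starts with Uqcr, Cox4, Cox5, Cox6, Cox7, Cox8 or Atp5. Probe sets annotated with exactly 1 gene symbol were kept, and where a gene had several, the one with the highest mean over the 9 arrays stood for it. This gave 45 genes of 14217 that have such a probe set, through 51 probe sets: 4 of complex II, 8 of complex III, 17 of complex IV and 16 of complex V. All 45 matched a current rat gene by identifier. The complex IV names include Cox6c-ps1, a pseudogene, and Cox7a2l, a factor that joins respiratory complexes into supercomplexes, and the complex V names include Atp5if1, the inhibitor of the enzyme. Another 7 probe sets carry a symbol of the rule together with at least 1 more and were not used. Uqcrb of complex III, Cox7a2 of complex IV, and Atp5mc1 and Atp5mc2 of complex V have only such probe sets. They are absent from the counts and medians below. Cycs, the mobile carrier cytochrome c, has no probe set with a single symbol either and is not described.

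The study asked how an obesity-inducing diet changes islet gene expression. Rats were 7 weeks old at the start and were fed for 30 days, either a standard chow with 8% of its calories as fat (4 arrays) or a cafeteria diet, a varied palatable diet with 66% of its calories as fat (5 arrays). The labels name no genetic modification. The islets were released with collagenase, separated on a density gradient and picked by hand, so each sample is a mixture of endocrine and other islet cells. RNA of each independent sample was hybridised to an Affymetrix Rat Genome 230 2.0 array. Diet was read from each sample's title. The diet characteristic of all 9 samples contradicts the title, source name and description; if it were right, each difference below would have the opposite sign. A further standard array named in the design text was not analysed here.

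The respiratory chain sits in the inner mitochondrial membrane. Complex II, succinate dehydrogenase, passes electrons from succinate to ubiquinone and is also an enzyme of the citric acid cycle. Complex III hands them on to cytochrome c, complex IV passes them to oxygen, and the proton gradient built by complexes III and IV, together with complex I, drives ATP synthesis by complex V. A few core subunits of complexes III, IV and V are made from mitochondrial DNA; the genes here are nuclear. In the beta cell, ATP made in this way closes the ATP-sensitive potassium channel and so couples glucose metabolism to insulin release.

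Values are array signals, linear fluorescence intensities with no absolute unit, deposited on a scale where the trimmed mean of every array is 500. Median signals of the 9 arrays lay between 147 and 167. The islet label was borne out by its hormone genes: Ins2 had a mean signal of 24082 ± 4309 (SD, n = 4) on standard and 26874 ± 4149 (SD, n = 5) on cafeteria arrays, and Gcg had 40403 ± 6231 and 42076 ± 5853. Differences are given as cafeteria minus standard in log2(signal + 16), from limma fitted to the 18625 brightest probe sets (mean log2 signal at or above the 40th percentile, near a signal of 91.1). A gene counted as called at a Benjamini-Hochberg adjusted p under 0.05. Over the whole array 0 probe sets were called, the lowest adjusted p was 0.228, and 1080 had an unadjusted p under 0.05. Signals of different probe sets were not compared, since probes differ in brightness for the same amount of RNA.

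None of the respiratory genes passed the test, and the differences between diets were small. Of the 45 genes, 40 were bright enough to be tested, and 0 of 40 were called by limma (percent of all tested probe sets called: 0%), with a lowest adjusted p of 0.839. As a description, 32 of the 40 (80%) had a difference above 0 and 8 below, with a median of 0.09. Over all probe sets tested, 48.1% were above 0 and the median was -0.0090; among the 5027 with a mean signal of at least 1000, in which most respiratory genes lie, 55.6% were above 0 and the median was 0.02. An unadjusted p under 0.05 was reached by 6 genes, all higher on the cafeteria diet (Atp5mk, Cox7c, Cox7b, Atp5me, Uqcrq and Uqcr10), against 3.01% of all probe sets higher and 2.79% lower, and 4.65% higher among the bright ones. Groups did not overlap for 2 genes, Cox7c and Atp5mk, both higher on the cafeteria diet, beside 0.999% of all probe sets higher and 0.762% lower. Standard errors of the 40 differences ran from 0.08 to 0.23, with a median of 0.12.

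The count of higher genes depended on the scaling and on single arrays. It was 25 of 40 after quantile normalization, where 50.9% of all probe sets were above 0, and 34 of 40 when arrays were scaled to 1 median, where 57.0% were; the median of the 40 was 0.07 and 0.13. Leaving out 1 array at a time gave counts from 27, without cafeteria replicate 1 or standard replicate 1, to 37, without cafeteria replicate 3. The number of genes with an unadjusted p under 0.05, 6 with all arrays, was 2 without cafeteria replicate 2, 3 without cafeteria replicate 4 or 5 or standard replicate 2 or 3, 6 without standard replicate 4, 7 without cafeteria replicate 1 or 3 and 8 without standard replicate 1.

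**Figure D1:**
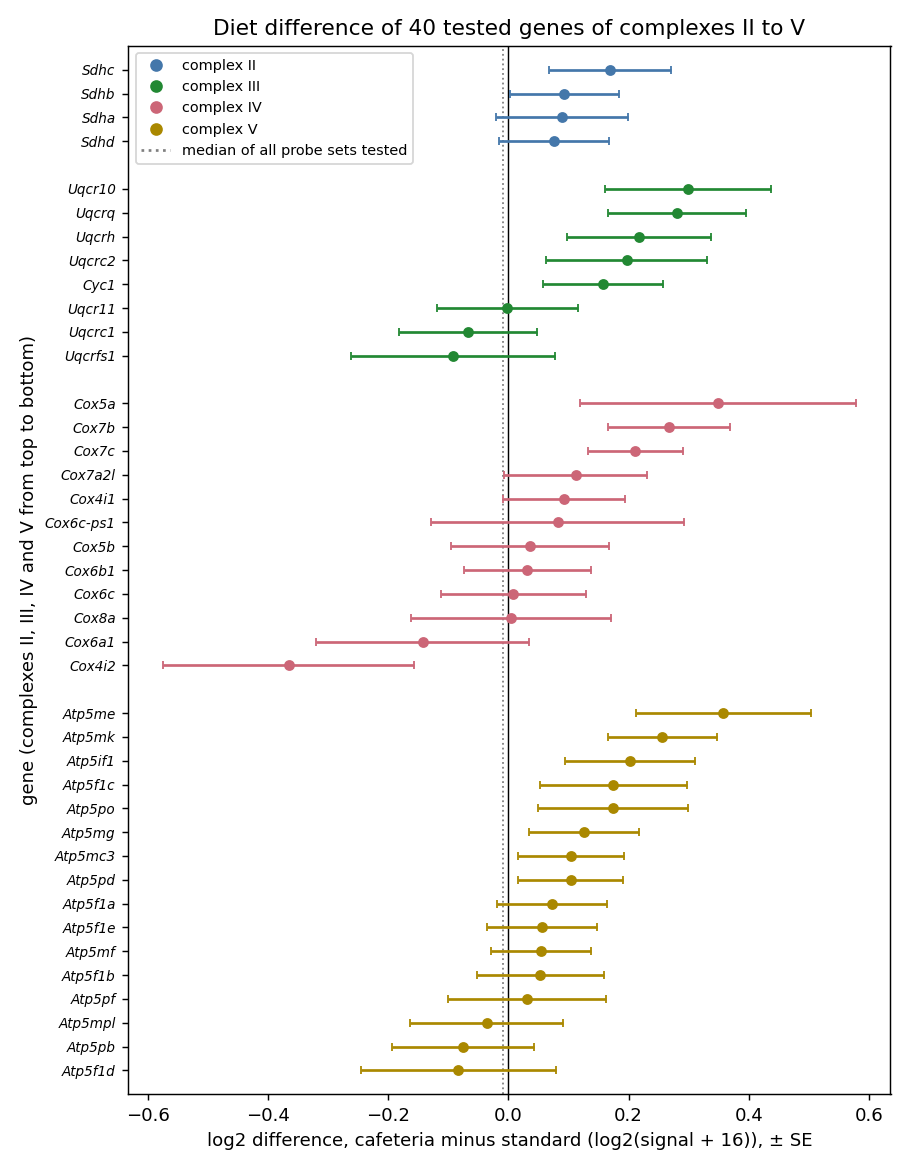
Differences between diets (cafeteria minus standard, log2(signal + 16), with their standard errors as bars) for the 40 tested genes, coloured by complex and sorted within it. The dotted line is the median of all 18625 probe sets tested and the solid line is 0; 32 of the 40 points lie above 0.

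The sequences just upstream of 4 of these genes are shown because nuclear respiratory genes are known for a shared set of promoter elements, among them sites for NRF-1 and for the ETS family member GABP. The genes are those with the smallest unadjusted p of complexes III and IV and the pair with the smallest of complex V. Each line is the 250 bases before the annotated start, read 5′ to 3′ on the gene's strand, from RefSeq on GRCr8; capitals mark matches on either strand to GCGCA, then any base, then GCGC (NRF-1), to CCGGAAG (ETS, GABP) or to AAGATGGC (YY1).
Uqcrq (complex III, chr10:38089979-38090228, minus strand): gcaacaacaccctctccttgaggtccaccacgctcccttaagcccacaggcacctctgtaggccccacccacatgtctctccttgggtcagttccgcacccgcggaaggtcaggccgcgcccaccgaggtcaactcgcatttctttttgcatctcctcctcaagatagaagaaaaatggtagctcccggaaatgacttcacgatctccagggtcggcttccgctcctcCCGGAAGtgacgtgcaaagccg
Cox7c (complex IV, chr2:18579171-18579420, minus strand): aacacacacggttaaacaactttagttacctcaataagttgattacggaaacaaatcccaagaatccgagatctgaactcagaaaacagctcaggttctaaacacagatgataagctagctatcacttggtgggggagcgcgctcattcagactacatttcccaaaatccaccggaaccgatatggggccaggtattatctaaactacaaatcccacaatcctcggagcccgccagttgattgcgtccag
Atp5mk (complex V, chr1:255922048-255922297, minus strand): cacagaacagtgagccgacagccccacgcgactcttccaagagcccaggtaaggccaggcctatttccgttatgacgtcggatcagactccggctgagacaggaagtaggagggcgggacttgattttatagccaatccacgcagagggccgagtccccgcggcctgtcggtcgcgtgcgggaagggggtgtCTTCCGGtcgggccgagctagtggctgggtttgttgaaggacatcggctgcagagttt
Atp5me (complex V, chr14:1464610-1464859, plus strand): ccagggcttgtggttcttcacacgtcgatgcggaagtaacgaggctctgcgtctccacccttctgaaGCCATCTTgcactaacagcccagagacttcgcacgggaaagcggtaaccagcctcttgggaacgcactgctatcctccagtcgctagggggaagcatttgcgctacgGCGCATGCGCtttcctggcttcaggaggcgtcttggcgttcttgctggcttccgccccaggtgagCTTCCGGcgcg
Uqcrq holds the ETS letters 22 to 16 bases before its start. Atp5mk holds them on the opposite strand, 58 to 52 bases before it. Atp5me holds all 3 motifs: YY1 at 183 to 176, NRF-1 at 76 to 67 and ETS at 11 to 5 bases before the start. Cox7c, the complex IV gene whose groups did not overlap, holds none of these letters in this window. Promoters were matched for 38 of the 45 genes, out of 27457 in the table. The ETS letters were found in 12 of the 38 (31.6%) against 7.74% of all promoters, the NRF-1 letters in 5 (13.2%) against 4.17%, and the YY1 letters in 2 (5.26%) against 1.69%. Another 2 motifs were searched for comparison: TATAAA stood in 5 of the 38 (13.2%) against 13.1% of all promoters, and CCAAT in 14 (36.8%) against 34.3%. The GC content of the window had a median of 54.4% in the 38 and 52.0% in all. A match of letters describes the sequence and shows no binding.

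All 4 subunits of complex II had slightly higher means on the cafeteria diet, none past the test, with differences from 0.08 to 0.17 and a median of 0.09. Sdhc, 1 of the 2 membrane anchors that hold the complex in the inner membrane, had signals of 3972, 3225, 3489 and 3717 on standard replicates 1 to 4 and 3660.4, 3925, 4569, 4316 and 3793 on cafeteria replicates 1 to 5. The means were 3601 ± 319 (SD, n = 4) and 4053 ± 379 (SD, n = 5), and the difference was 0.17 (SE 0.10, limma adjusted p = 0.859). Cafeteria replicates 3 and 4 lay above every standard array and the other cafeteria arrays within the standard range. The second anchor, Sdhd, had 3347, 3218, 3479 and 2914 on standard and 3438, 3240.1, 3692, 3349 and 3339 on cafeteria arrays, a difference of 0.08 (SE 0.09). Its groups overlapped widely, and standard replicate 4 was the lowest of all.

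The catalytic part of complex II showed as little. Sdhb, the iron-sulfur subunit, had 3360.3, 3247, 3331 and 3688 on standard and 3444, 3844, 3383, 3899 and 3613 on cafeteria arrays, a difference of 0.09 (SE 0.09). Sdha, the flavoprotein that oxidises succinate, had 1685, 1846, 1675 and 1478 on standard and 1788, 1624, 1770.4, 2078 and 1638 on cafeteria arrays, also a difference of 0.09 (SE 0.11). For both genes the groups overlapped, and cafeteria replicate 4 was the highest of the 9 arrays. The 95% confidence intervals, -0.10 to 0.29 for Sdhb and -0.15 to 0.33 for Sdha, leave room for a change in either direction. In all 9 fits with 1 array left out each of the 4 complex II genes stayed above 0, and the median of the complex ran from 0.07 to 0.11.

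Complex III had a median of 0.18, with 5 of 8 genes above 0 and 3 below. This was the highest median of the 4 complexes with all arrays and the lowest without cafeteria replicate 3, where it was 0.10, beside 0.10 for II, 0.13 for IV and 0.10 for V. The genes with the smallest unadjusted p were the small accessory subunits Uqcrq, Uqcr10 and Uqcrh, while Uqcr11, another small subunit, differed by -0.0015. Uqcrq had signals of 4837, 4368, 3884 and 5069 on standard and 5515, 5689.7, 4664, 5240.1 and 6481 on cafeteria arrays. The means were 4539.5 ± 525 (SD, n = 4) and 5518 ± 664 (SD, n = 5), a difference of 0.28 (SE 0.11, 95% confidence interval 0.03 to 0.53, limma adjusted p = 0.839). Of its cafeteria arrays 4 lay above every standard array and replicate 3 lay within their range.

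Uqcr10, another small subunit, had 4964, 3937, 4369 and 5254 on standard and 5083, 6284, 4682, 5305 and 7353 on cafeteria arrays, a difference of 0.30 (SE 0.14, limma adjusted p = 0.839). Uqcrh, the hinge protein that lies beside cytochrome c1, had 7067, 5881, 5951 and 7208 on standard and 6975, 7837, 6364, 7509 and 9429 on cafeteria arrays, a difference of 0.22 (SE 0.12, limma adjusted p = 0.859). These 3 accessory subunits shared an order of arrays: cafeteria replicate 5 was the highest of the 9 for each, cafeteria replicate 3 the lowest of its group, and the groups overlapped for each. Cyc1, cytochrome c1, which passes electrons to cytochrome c, had 3349.8, 3450.1, 3051 and 3339 on standard and 3648, 3255, 4274, 3804 and 3474 on cafeteria arrays, a difference of 0.16 (SE 0.10, limma adjusted p = 0.859). Its order differed, with cafeteria replicate 3 the highest array and replicate 2 below 3 of the standard ones.

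The remaining subunits of complex III gave no common direction. Uqcrc2, a core protein, is described because its array values stood out, and so was chosen after they were seen. It had 4158, 3722, 4006 and 3788 on standard and 3981, 3809, 6284, 4382 and 4365 on cafeteria arrays, a difference of 0.20 (SE 0.13) that was 0.08 without cafeteria replicate 3. Its partner Uqcrc1 differed by -0.07 (SE 0.11), Uqcrfs1, the Rieske iron-sulfur protein, by -0.09 (SE 0.17), and Uqcr11, a small subunit, by -0.0015 (SE 0.12). All 3 had overlapping groups and their lowest cafeteria signal on replicate 3.

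In complex IV, cytochrome c oxidase, 12 of the 17 genes were tested, 10 were above 0 and 2 below, and the median was 0.06. The clearest separation was in Cox7c, a small structural subunit, with 5563, 5129.9, 5383 and 5343 on standard and 6109, 6311, 6032, 6373 and 6174 on cafeteria arrays. The means were 5355 ± 178 (SD, n = 4) and 6199.7 ± 141 (SD, n = 5), a difference of 0.21 (SE 0.08, 95% confidence interval 0.04 to 0.38, limma unadjusted p = 0.0196, adjusted p = 0.839). Each cafeteria array exceeded each standard array, and the difference stayed between 0.19 and 0.23 when any array was left out. Cox7b, another small subunit, had 11553, 11888, 12614 and 12671 on standard and 13279, 16092, 12474, 15487 and 16356 on cafeteria arrays, a difference of 0.27 (SE 0.10, limma adjusted p = 0.839). Here 4 cafeteria arrays were above all standard ones, and replicate 3 was below standard replicates 3 and 4.

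Among the 12 tested genes of complex IV the largest differences were those of Cox4i2 and Cox5a, whose probe sets varied widely between arrays of 1 diet. The Cox5a values rest on the 1 probe set with that symbol alone; another, annotated to Cox5a and a second symbol, was not used. Cox4i2, the tissue-restricted isoform of subunit 4 known for its oxygen-responsive expression in lung, had 158, 332, 277 and 215 on standard and 203, 202, 157, 162 and 183 on cafeteria arrays. The difference was -0.37 (SE 0.21, limma adjusted p = 0.859) and ran from -0.55 to -0.21 with 1 array left out. The groups overlapped, since standard replicate 1 was among the lowest arrays. Cox5a, a subunit that faces the matrix, had 244, 218, 152 and 294 on standard and 178, 330.1, 370.3, 317 and 275 on cafeteria arrays, a difference of 0.35 (SE 0.23, limma adjusted p = 0.859). Cafeteria replicate 1 was lower than 3 of the standard arrays, and the difference was 0.08 without standard replicates 1 and 3 and cafeteria replicate 3.

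The remaining complex IV genes lay close to 0. Cox4i1, the common isoform of subunit 4, had 12529.9, 10606, 9426 and 9812 on standard and 11359.5, 10579, 12048, 10399.8 and 11831 on cafeteria arrays, a difference of 0.09 (SE 0.10). Cox7a2l, the supercomplex factor, had 3789.8, 3104, 3159 and 3576 on standard and 3356, 3176, 4373, 3419.9 and 4179.8 on cafeteria arrays, a difference of 0.11 (SE 0.12). Standard replicate 1 was the highest array of Cox4i1, and for both genes the groups overlapped. Cox6a1, the common isoform of subunit 6a, had 5025, 6425, 6049.8 and 6271 on standard and 6476, 5710.3, 3263, 6432 and 5681 on cafeteria arrays, a difference of -0.14 (SE 0.18). Its sign rested on cafeteria replicate 3, without which it was 0.04. The differences of Cox5b, Cox6b1, Cox6c, Cox6c-ps1 and Cox8a lay between 0.0048 and 0.08, with standard errors of 0.11 to 0.21, and those of Cox5b, Cox6b1, Cox6c and Cox8a were below 0 after quantile normalization. After quantile normalization 6 of the 12 complex IV genes were above 0, with a median of 0.03. Leaving out cafeteria replicate 1 gave a median of 0.02, leaving out cafeteria replicate 3 one of 0.13. Without Cox6c-ps1 and Cox7a2l it was 0.03.

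Of the 16 genes of complex V, ATP synthase, 13 were above 0 and 3 below, with a median of 0.09. Its clearest separation was in Atp5mk, also called DAPIT, a small membrane subunit known for a part in joining synthase dimers. Atp5mk had 7402, 8835, 8144 and 8286 on standard and 9156, 10415, 8936, 9863 and 10412 on cafeteria arrays. The means were 8167 ± 590.3 (SD, n = 4) and 9756 ± 691 (SD, n = 5), a difference of 0.26 (SE 0.09, 95% confidence interval 0.06 to 0.45, limma unadjusted p = 0.0146, adjusted p = 0.839). The lowest cafeteria array, replicate 3, was above the highest standard array, replicate 2, by little. With 1 array left out the difference ran from 0.21 to 0.29.

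Atp5me, subunit e of the membrane part, had 2125, 3276, 2569 and 3364 on standard and 3832, 3903, 3247, 4003 and 2998 on cafeteria arrays. The difference of 0.36 (SE 0.15, 95% confidence interval 0.04 to 0.67, limma adjusted p = 0.839) leaned on standard replicates 1 and 3, the lowest arrays: it was 0.23 without standard replicate 1 and 0.14 without both of them and cafeteria replicate 3. Atp5mg, subunit g and a neighbour of subunit e in the synthase dimer, had 6067, 5514, 5227 and 5319 on standard and 6316, 5983, 5358, 6126 and 6412 on cafeteria arrays, a difference of 0.13 (SE 0.09, limma adjusted p = 0.860). For Atp5me and Atp5mg 3 cafeteria arrays each lay above every standard array, and the groups overlapped.

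Atp5if1, which binds the synthase and blocks ATP hydrolysis when the proton gradient collapses, had 2715, 2284, 2423 and 2413 on standard and 2363, 2799, 2809, 3215 and 3013 on cafeteria arrays. The difference was 0.20 (SE 0.11, limma adjusted p = 0.848); 4 cafeteria arrays lay above all standard arrays and replicate 1 below 3 of them. Atp5po, the OSCP subunit that links the peripheral stalk to the catalytic head, had 2789, 2196, 2319.8 and 2064 on standard and 2283, 2399, 3210.3, 2789 and 2554 on cafeteria arrays, a difference of 0.17 (SE 0.12). Atp5f1c, the gamma subunit that turns inside the head, had 9694, 7964, 7017 and 7247 on standard and 7956, 8161, 10640.3, 8365 and 9861 on cafeteria arrays, also a difference of 0.17 (SE 0.12). Atp5po and Atp5f1c were both highest in their groups on standard replicate 1 and cafeteria replicate 3, and both had overlapping groups.

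The other head and stalk subunits differed less. Atp5f1a and Atp5f1b, the alpha and beta subunits that carry the nucleotide sites, differed by 0.07 (SE 0.09) and 0.05 (SE 0.11), and Atp5f1e, the epsilon subunit, by 0.06. Atp5f1d, the delta subunit, differed by -0.08 (SE 0.16), and Atp5pb, the b subunit of the peripheral stalk, by -0.08 (SE 0.12), the third gene below 0 being Atp5mpl at -0.04. Atp5mc3, 1 of the genes for the membrane ring, and Atp5pd of the stalk both differed by 0.10, Atp5mf by 0.05 and Atp5pf by 0.03. The 95% confidence interval of each of these spans 0. After quantile normalization 10 of the 16 genes of complex V were above 0 and their median was 0.04.

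**Figure D2:**
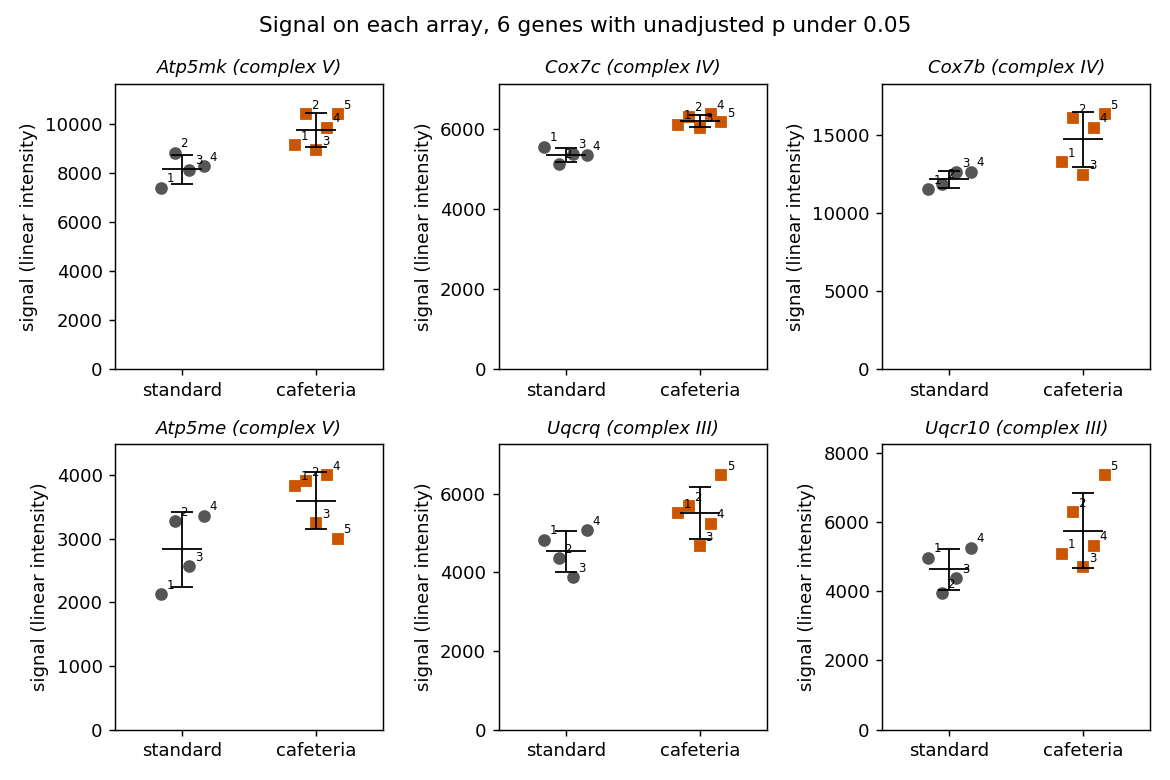
Signal (linear intensity, axes from 0) on each array for the 6 genes with an unadjusted p under 0.05, standard arrays as circles and cafeteria arrays as squares, each marked with its replicate number; bars are the mean ± SD of 4 and 5 arrays. Only Atp5mk and Cox7c show no overlap between diets, and cafeteria replicate 3 is the lowest cafeteria array in 5 of the 6 plots.

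Several complex IV subunits have a second isoform with its own gene, which in other tissues, such as heart, muscle or testis, takes the place of the common one. Of these, Cox6a2, Cox6b2, Cox7a1, Cox7b2 and Cox8b fell under the signal threshold and were not tested in the fit. Cox6a2, the heart and muscle isoform of subunit 6a, had 4.82, 16.1, 28.2 and 5.78 on standard and 2.93, 26.2, 5.37, 8.20 and 10.03 on cafeteria arrays. Cox6b2, known as the testis isoform of subunit 6b, had 35.7, 58.8, 53.9 and 36.1 on standard and 13.7, 19.3, 11.8, 51.3 and 6.83 on cafeteria arrays, where 4 of the 5 were below every standard array and replicate 4 was not. Cox8b, the heart and muscle isoform of subunit 8, had 8.46, 21.5, 5.31 and 6.95 on standard and 6.64, 8.95, 51.4, 5.37 and 33.0 on cafeteria arrays, where replicates 3 and 5 stood above the rest. Signals of Cox7a1 ran from 41.3 to 89.1 and those of Cox7b2 from 1.91 to 55.8, with overlapping groups in both.

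The balance between isoforms was tested within arrays as the log2 difference of the second isoform from the common one, by an exact two-sided permutation test over the 126 splits of the arrays, for which the smallest p is 0.0079, adjusted over 4 pairs. None passed. The balance of Cox6b2 against Cox6b1 differed between diets by -0.88 (exact permutation p = 0.0397, adjusted p = 0.159), and by -1.44 with a pseudocount of 1 and -0.43 with one of 64, so its size is set largely by the pseudocount. Cox4i2 against Cox4i1 differed by -0.46 (exact permutation p = 0.159, adjusted p = 0.317). Cox8b against Cox8a differed by 0.35 (adjusted p = 0.794) and Cox6a2 against Cox6a1 by -0.01 (adjusted p = 0.976), both by the exact permutation test and both with a sign that turned when single arrays were left out. In 3 of the 4 pairs, all but Cox4i2, the second isoform lay under the signal threshold of the fit. The ratio of signals of 2 probe sets gives no ratio of molecules.

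Averaged over the 40 genes on the deposited scale, 4 of the 5 cafeteria arrays lay above every standard array, and cafeteria replicate 3 did not. Single genes differed from this average: for 6 of the 40, the highest of the 9 arrays was a standard one. The same average is not given here for all or for bright probe sets, or after another scaling. The pattern is therefore not shown to be particular to these genes. Expressed as the mean log2 deviation from each gene's mean over 9 arrays, standard replicates 1 to 4 lay at -0.08, -0.02, -0.08 and -0.02. Cafeteria replicates 1, 2, 4 and 5 lay at 0.07, 0.06, 0.09 and 0.07, and cafeteria replicate 3 at -0.08, beside the lowest standard arrays. Genes of complex IV were lowest on that array, at -0.17, followed by complex III at -0.08 and complex V at -0.07, while the 4 genes of complex II were at 0.09 there. Complex III was highest on cafeteria replicate 5, at 0.17, and complex II on cafeteria replicate 4, at 0.15.

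**Figure D3:**
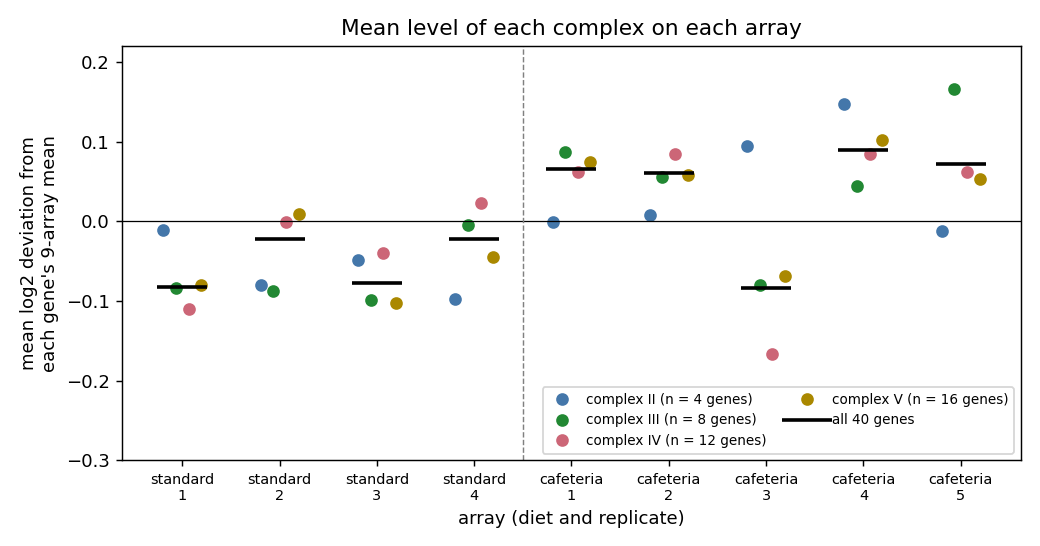
Mean log2 deviation of each complex from its genes' 9-array means, for each array; coloured points are complexes (4, 8, 12 and 16 genes) and black bars all 40 tested genes. The bars of 4 cafeteria arrays lie at 0.06 to 0.09, and those of the standard arrays and cafeteria replicate 3 lie below 0.

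Cafeteria replicate 3 also spread the genes farthest apart: the SD over the 40 deviations was 0.30 there and 0.12 to 0.20 on the other 8 arrays. It was the lowest array of its group for 25 of the 40 genes and the highest for 9; over all tested probe sets it was the lowest for 26.5% and the highest for 24.3%. Against the mean of the other 4 cafeteria arrays, on the log2 scale, Cox6a1 was lower there by a difference of -0.89, Atp5f1d of -0.78, Cox8a of -0.72, Cox6c of -0.54 and Cox5b of -0.53. At the other end, Uqcrc2 was higher by 0.60, Cox5a by 0.44, Atp5po by 0.36, Cox7a2l and Atp5f1c by 0.31, Cyc1 by 0.27 and Sdhc by 0.22. Standard replicate 1 was the lowest of its group for 14 genes, of which 13 were among the 25 (92.9% of the 14, 52% of the 25); over all tested probe sets the same shares were 42.4% and 47.2%. It was the highest of its group for 3 of the 25. Of the 9 that were highest on cafeteria replicate 3, 6 were highest in their group on standard replicate 1 (66.7% of the 9, 50% of the 12), beside 48.5% and 36.2% over all tested probe sets.

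The beta-actin control of the array, the signal at the 3′ end of the transcript over that at the 5′ end and a usual measure of RNA integrity and labelling, was 4.84, 3.82, 3.36 and 3.00 on standard replicates 1 to 4 and 2.79, 3.75, 5.63, 3.24 and 4.59 on cafeteria replicates 1 to 5, so the 2 highest ratios belonged to cafeteria replicate 3 and standard replicate 1. Cafeteria replicate 5 had the next highest ratio and a mean deviation of the 40 genes of 0.07, and standard replicate 3 a ratio of 3.36 and a mean deviation of -0.08. The mean deviation includes the diet difference and averages shifts of single genes in both directions, so it cannot show how the ratio relates to those shifts. The same ratio for GAPDH ran from 1.29 to 1.64, and cafeteria replicate 3, at 1.53, lay below standard replicate 1 (1.64), cafeteria replicate 5 (1.62) and standard replicate 2 (1.60). The part of RNA quality in these values was not tested; with the log2 beta-actin ratio as a covariate, 33 of the 40 differences were above 0, beside 48.3% of all probe sets, and the median was 0.09. Without cafeteria replicate 3, 37 of 40 genes were above 0, with a median of 0.10, where 49.0% of all probe sets were above 0. Without that array and standard replicates 1 and 3, 33 of 40 were above 0, with a median of 0.09 and an unadjusted p under 0.05 for 4.

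**Figure D4:**
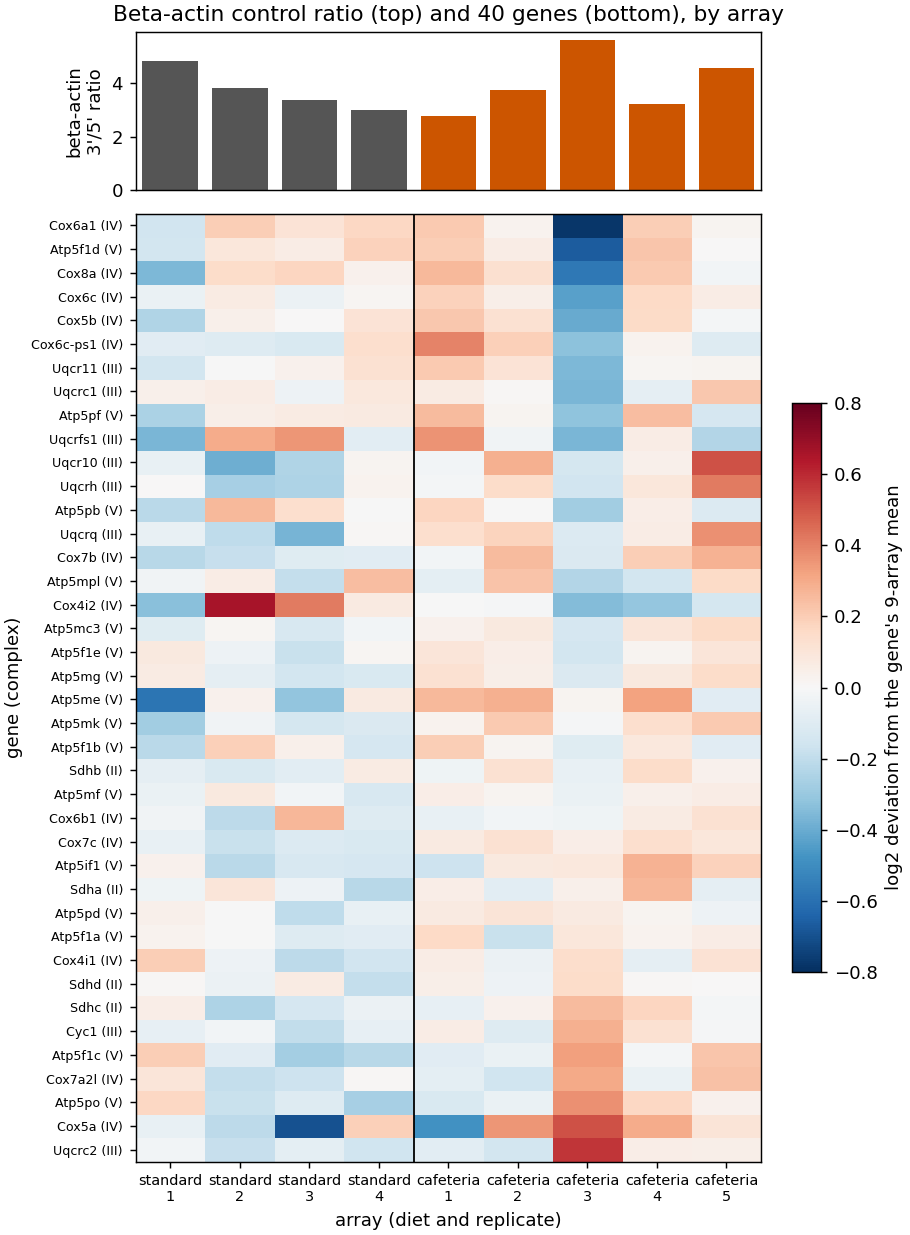
Top, beta-actin 3′/5′ signal ratio (no unit, axis from 0) of each array, standard in grey and cafeteria in orange. Bottom, log2 deviation of each of the 40 genes from its 9-array mean (blue lower, red higher), sorted by how cafeteria replicate 3 differs from the other cafeteria arrays, from Cox6a1 at -0.89 to Uqcrc2 at 0.60. Cafeteria replicate 3, with the ratio of 5.63, holds the strongest blue and red of its group.

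A few genes had more than 1 probe set, and these did not always give the same size. The second probe set of Uqcrc2, with a mean signal of 957, had 781, 654, 855 and 708 on standard and 1062, 983, 1362, 1230.0 and 977 on cafeteria arrays. All cafeteria arrays were above all standard ones, and the difference was 0.57 (SE 0.13, limma unadjusted p = 0.00095, adjusted p = 0.839), against 0.20 for the brighter probe set that stands for the gene. Both probe sets had their highest signal on cafeteria replicate 3. A second probe set of Atp5if1, with a mean signal of 192, differed by 0.60 (SE 0.23), against 0.20 for the brighter one. The second probe set of Sdhd differed by 0.09, close to the 0.08 of the first. Further probe sets of Atp5if1, Atp5me and Atp5po lay under the signal threshold and were not tested.

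Genes that build the complexes or regulate them gave no calls either. Among complex II assembly factors, 2 of 4 tested were above 0, 0 were called, and Sdhaf1, which helps to insert iron-sulfur clusters into Sdhb, differed by 0.25 (SE 0.11), Sdhaf2 by -0.11 (SE 0.15) and Sdhaf3 by -0.13 (SE 0.21). Of complex III assembly factors 4 of 5 were above 0 and 0 were called; Bcs1l, which inserts the Rieske protein, differed by 0.33 (SE 0.14) and Ttc19, which acts on complex III after that step, by 0.34 (SE 0.15), while Uqcc3 differed by -0.11 (SE 0.17). Of 21 tested complex IV assembly and copper delivery genes, 15 were above 0 and 0 were called, with a median of 0.10; Fastkd5, which processes mitochondrial RNA, differed by 0.32 (SE 0.18), Coa5 by 0.15 (SE 0.09) and Cox18, which helps to insert a mitochondrially made subunit, by 0.21 (SE 0.13). Of the ATP synthase assembly and inhibitor list, which holds Atp5if1, 4 of 5 were above 0 and 0 were called; Atpaf2, an assembly factor for the alpha subunit, differed by 0.32 (SE 0.13), and Fmc1 by -0.25 (SE 0.14).

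Of 15 nuclear regulators of respiratory genes, 9 were above 0, 6 below and 0 called, with a median of 0.03. Ppargc1a, the coactivator PGC-1alpha that drives mitochondrial biogenesis, had 155, 181, 185 and 196 on standard and 152, 231, 267, 382 and 333 on cafeteria arrays. Its difference was 0.51 (SE 0.23, limma adjusted p = 0.839); 4 cafeteria arrays lay above all standard arrays, and replicate 1 lay below them all. The related coactivator Pprc1 differed by 0.32 (SE 0.13), and Nrf1, the factor that binds the NRF-1 letters marked above, by -0.24 (SE 0.15). Of 11 tested ATP export and phosphate carriers, 8 were above 0, 3 below and 0 called, with a median of 0.01 that was -0.02 after quantile normalization. Slc25a5, an ADP/ATP carrier of the inner membrane, differed by 0.22 (SE 0.10), Slc25a24, a calcium-regulated ATP and phosphate carrier, by 0.20 (SE 0.11), and Ucp2, the uncoupling protein of beta cells, by -0.38 (SE 0.23).

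Beside them stood a list for complex I, the NADH dehydrogenase at the head of the chain, taken by symbols starting with Ndufa, Ndufb, Ndufc, Ndufs or Ndufv. A symbol alone does not make each gene a complex I subunit, and Ndufa4 stands in the complex IV assembly list too. The list had 17 of 36 genes above 0, 19 below and a median of -0.0038, with 0 called. A limma unadjusted p under 0.05 was reached by 3, all higher on the cafeteria diet, beside 3.01% of all probe sets higher and 2.79% lower. These were Ndufb6, with a difference of 0.25 (SE 0.09), Ndufb3 with 0.23 (SE 0.09) and Ndufb5 with 0.26 (SE 0.10). Groups did not overlap for Ndufb6, Ndufb3 and Ndufc1, all higher on the cafeteria diet, beside 0.999% of all probe sets higher and 0.762% lower. The count above 0 moved with cafeteria replicate 3: without that array 28 of 36 were above 0 and the median was 0.08. With arrays scaled to 1 median, 25 of 36 were above 0. Of 73 mitochondrial ribosomal protein genes 55 were above 0, with a median of 0.06 and 0 called. A limma unadjusted p under 0.05 was reached by 2, Mrpl3 with a difference of 0.26 (SE 0.11) and Mrps26 with 0.30 (SE 0.13). Mrps18c, the next by that p, differed by 0.32 (SE 0.15). Groups did not overlap for Mrps6, Mrpl33 and Mrpl32, all higher on the cafeteria diet, beside the same shares of all probe sets. Whether these lists differ from complexes II to V was not tested.

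Markers of other cell types were read beside these values; in bulk islets fewer cells of a type cannot be told apart from less RNA per cell. None of the markers was called or listed at 0. Over all probe sets tested, 48.1% were above 0. Of the 7 beta cell markers tested 5 were above 0, with summed signals of 118350 to 168364 on standard and 134978 to 180597 on cafeteria arrays. Of 14 acinar markers 13 were above 0, with sums of 4243 to 10705 and 3296 to 12100.3; their median of 0.45 became 0.25 or 0.68 when standard replicate 4 or 1 was left out, and 0.26 or 0.77 when cafeteria replicate 3 or 5 was. All 7 tested macrophage markers were below 0, from -0.95 for Cd74 to -0.0039 for Cd68. Their sums of 7190.5 to 12335 on standard and 4019 to 6739 on cafeteria arrays did not overlap. Cd74, with 3194 to 7348 on standard and 1684 to 2642 on cafeteria arrays, made up a large part of these sums, and without Cd74 the sums overlapped. The highest sum and the highest Cd74 signal were both on standard replicate 3. The median of the macrophage markers, -0.30, was -0.15 without cafeteria replicate 2, -0.46 without cafeteria replicate 3 and -0.50 without cafeteria replicate 5. All 4 lymphocyte markers were below 0, with sums of 593 to 812 on cafeteria arrays. Standard replicate 3 stood apart in that list, with a sum of 3834 against 754 to 1112 on the other standard arrays. The median was -0.87 over 4 markers with it and -0.43 over 3 without it, so the medians cover different genes. The count of 4 thus includes a marker that passed the signal threshold only with standard replicate 3. For such a marker a lower cafeteria mean is partly set by the filter. All 4 duct cell markers were below 0, with sums of 3165 to 4591 on cafeteria arrays. Here standard replicate 1 stood apart, at 7217 against 3920.1 to 4473 on the other standard arrays, and without it 2 of 4 were above 0 and the median of -0.25 became 0.06. Endothelial markers were above 0 in 2 of 8, with sums of 8391 to 10041 and 8019.6 to 9408. Markers of other endocrine cells were above 0 in 1 of 6 (3 of 6 without cafeteria replicate 3), those of smooth muscle cells and pericytes in 4 of 8, and striated muscle and adipocyte lists had 2 tested genes each. The part of these cells in the differences of the respiratory genes was not tested.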

How the data were processed

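Signals of 9 Affymetrix arrays, 4 standard and 5 cafeteria, were analysed. The deposited table gives the authors' linear intensity of each probe set. The submitters' processing notes name MAS5 as the software; the sources used here do not give its version. After 2% is cut from each end every array averages 500, and no further scaling was applied. Of 31099 probe sets, 57 controls were left out; of the other 31042, 20826 have 1 gene symbol, 436 several and 9780 none here. Arrays have no read depth, and their number limits the precision.

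Values were tested as log2(signal + 16), which understates changes of dim genes, with limma 3.58.1 under R 4.3.3. Diet was the single term, the prior variance followed intensity, and p-values were adjusted by Benjamini-Hochberg over 18625 probe sets. The labels call the replicates independent biological replicates. The fit was tested on simulated data. Array values are given for the members with the smallest unadjusted p (4 of complex II, 4 of III, 6 of IV, 6 of V), those with non-overlapping groups and the isoform pairs. From each neighbouring list up to 3 genes are named, by the same measure. For the complex I and mitochondrial ribosomal lists, genes with non-overlapping groups are named too. Members, lists and tests were chosen with earlier results of these data known. Alternatives were other pseudocounts (1 and 64), quantile or median scaling, other filters, each array left out, a replicate block, other variance models and other probe set choices. The beta-actin covariate, and complexes IV and V without Cox6c-ps1, Cox7a2l and Atp5if1, were added after the data had been seen. Promoter sequences are from RefSeq (GRCr8).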

Additional observations from a re-analysis of the deposited data

Results flagged for a closer look

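In 6 of 98 groups of array values (45 genes and 4 isoform balances, in each diet), the most extreme array lay farther from the nearest other than Dixon's 95% value allows (0.829 of the group's range for 4 arrays, 0.710 for 5); chance gives about 1 in 20. On cafeteria replicate 3, Cox6a1 (signal 3263) was low with a gap of 0.809 of the range, Cox6c (8966) low with 0.781, Atp5f1d (2709.6) low with 0.750, and Uqcrc2 (6284) high with 0.720. On standard replicate 1, Atp5pf (4166) was low with 0.914. On standard replicate 4, the pseudogene Cox6c-ps1 (123), a dim probe set, was high with 0.877.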

How the results depend on the processing

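Members called stayed at 0 under every alternative run, with a lowest adjusted p of 0.385 for a member, and 799 of 839 values of the 40 tested genes kept their direction. Over the 22 settings that include the one reported, 24 genes were above 0 in all, Cox4i2 and Atp5pb below 0 in all, and the others differed. Probe sets called over the whole array ran from 0 to 2 with 1 array left out (2 without standard replicate 2). The median of complex III ran from 0.096 (without cafeteria replicate 3) to 0.203, and was 0.098 without standard replicates 1 and 3 and cafeteria replicate 3, where Sdhaf2 was at 0.18. The causes were not tested.

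The sign of 14 of the 40 genes turned in some settings. After quantile normalization Atp5f1b was at -0.013, Atp5f1e at -0.00044, Atp5pf at -0.012, Cox5b at -0.010, Cox6b1 at -0.0061, Cox6c at -0.054 and Cox8a at -0.067. With arrays scaled to 1 median Atp5mpl was at 0.0082 and Uqcr11 at 0.043; Uqcr11 was also at 0.0029 with array weights, 0.029 with the beta-actin covariate and 0.030 without the 3 arrays named above. With 1 array left out, Cox6a1 ran from -0.22 to 0.035, Cox6b1 from -0.032 to 0.13, Cox8a from -0.11 to 0.15, Uqcrc1 from -0.13 to 0.017, Uqcrfs1 from -0.23 to 0.0082, Uqcr11 from -0.054 to 0.088, Cox6c-ps1 from -0.0075 to 0.17, Cox5b from -0.038 to 0.14, Cox6c from -0.036 to 0.12, Atp5f1d from -0.15 to 0.074, Atp5f1b from -0.0088 to 0.13, Atp5mpl from -0.11 to 0.038 and Atp5pf from -0.047 to 0.11. The isoform balance of Cox6a2 against Cox6a1 was 0.083 with a pseudocount of 64, 0.036 after quantile normalization, and ran from -0.17 to 0.19 with 1 array left out; that of Cox8b against Cox8a ran from -0.048 to 0.56.

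Over all tested probe sets, deviations of same-numbered arrays from their group means correlated at -0.38, -0.05, -0.12 and 0.03. Such correlations include every array-wide difference, so they cannot show whether samples of the same number were paired. With the replicate number as a block 0 members were called, 1 had an unadjusted p under 0.05, their median was 0.083, and Cox6c was at -0.0061. The 6 members with an unadjusted p under 0.05 were 1 without the intensity trend and 10 with array weights.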
